A study of Mus musculus with 20 samples.

Results

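The nuclear genes of the mitochondrial respiratory chain were followed in whole mouse ovaries around birth, in animals that lacked Figla or Lhx8, genes for oocyte transcription factors. The genes were taken by symbol: every protein-coding gene starting with Ndufa, Ndufb, Ndufc, Ndufs, Ndufv, Sdh, Uqcr, Cox4 to Cox8 or Atp5, with pseudogenes left out. This gave 97 of the 49585 genes in the count tables. They comprised 38 complex I subunits, 8 complex I assembly factors (Ndufaf), 4 complex II subunits, 4 complex II assembly factors (Sdhaf), 8 complex III subunits, 18 complex IV subunits, 16 ATP synthase subunits, and Atp5s, which carries the ATP synthase prefix and is listed apart. Ndufa4 and its paralog Ndufa4l2 entered complex I by their symbols, although the Ndufa4 protein is now placed in complex IV.

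The respiratory chain moves electrons from NADH and succinate to oxygen through complexes I to IV of the inner mitochondrial membrane, and the proton gradient that complexes I, III and IV build drives ATP synthase. Most subunits are encoded in the nucleus, while a small set is encoded in mitochondrial DNA, so a working complex needs products of both genomes. Oocytes are known for accumulating mitochondria as they grow and for relying on oxidative phosphorylation.

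The study sequenced messenger RNA of ovaries in 20 libraries from B6D2F1 mice, a hybrid strain. For Figla there were 4 libraries each of control and knockout at embryonic day 18.5 (E18.5), and 3 of each at the day of birth, postnatal day 0 (P0). For Lhx8 there were 3 of each, all at P0. The Figla libraries covered whole transcripts, and the Lhx8 libraries, made with another kit, covered transcript ends, so levels are not comparable between the sets.

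By the genotype labels the controls were heterozygous (Figla+/- or Lhx8+/-) and the knockouts were Figla-/- or Lhx8-/-, while the Lhx8 library names call the controls WT. Titles and library names disagreed about the group of 6 of the 14 Figla libraries and of all 6 Lhx8 libraries. Groups here follow the library names. Under these names Figla, given as CPM (counts scaled to equal library totals, adjusted by the TMM method), stood at 32.7, 36.7 and 41.3 in P0 controls and at 0.182, 0.635 and 0.299 in Figla knockouts. At E18.5 Figla stood at 21.8, 3.77 and 26.6 CPM in controls and at 0.826, 1.26 and 1.53 CPM in knockouts. Lhx8 stood at 93.6, 103 and 90.2 CPM in Lhx8 controls and at 16.9, 30.4 and 23.6 CPM in Lhx8 knockouts. Libraries named knockout were thus below every control of their own age and set for the deleted gene.

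Depth ran from 5583392 to 13408022 counts in the Figla libraries and from 8297204 to 9978350 in the Lhx8 libraries. Replicates 1 and 2 of the E18.5 controls, and likewise of the E18.5 knockouts, differed by little more than sampling noise (chi-square per degree of freedom 1.12 and 1.32, against 6.62 to 62.3 in the 22 other pairs). Each such pair was summed as 1 sample, which leaves 3 samples against 3 in every comparison. E18.5 control replicate 3 stood apart, with summed oocyte markers (Figla and Lhx8 among them) at 326 CPM against 1118 and 1439 in the other E18.5 controls. The E18.5 knockouts summed to 303 to 383 CPM, so this control lay within their range. Its title names it a knockout, as does the title of control replicate 4. The labels do not say that the libraries came from separate animals, so p-values measure only the spread between these samples. In whole ovaries a smaller share of a cell type and less RNA per cell cannot be told apart.

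Promoter sequences are shown for genes whose values are described further on, because respiratory chain promoters are known to hold sites for the factors NRF1, GABPA (a subunit of NRF-2) and YY1. RefSeq promoters (build GRCm38.p6, 250 bases before to 50 after the annotated start) were matched for 80 of the 97 genes. The letters GCGCATGC for NRF1 were found on either strand in 12 of the 80 (15%), against 3.94% of 17492 protein-coding genes. The letters AAGATGGC for YY1 were found in 11 (13.8%, against 3.57%), and CCGGAAGT for GABPA in 5 (6.25%, against 5.69%). At least 1 of these motifs was present in 27 of the 80 (33.8%), against 12.3% of protein-coding genes; the motifs searched do not overlap one another. A match is a description of the letters and not evidence of binding.

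The following windows hold the 200 bases before the start of 4 genes whose counts were lower in Figla knockouts at P0, read 5′ to 3′ on the gene's strand, with NRF1 letters in capitals (overlapping matches are merged into 1 run). Ndufaf4 lies at chr4:24897883-24898082 on the plus strand, Sdhb at chr4:140961071-140961270 on the plus strand, Cox6a1 at chr5:115348959-115349158 on the minus strand and Ndufv1 at chr19:4012756-4012955 on the minus strand. The capitals begin 113 bases before the start in Ndufaf4, 54 in Sdhb and 162 in Cox6a1. Ndufv1 is shown because it was lower in both knockouts and its window holds none of the 3 motifs.
Ndufaf4: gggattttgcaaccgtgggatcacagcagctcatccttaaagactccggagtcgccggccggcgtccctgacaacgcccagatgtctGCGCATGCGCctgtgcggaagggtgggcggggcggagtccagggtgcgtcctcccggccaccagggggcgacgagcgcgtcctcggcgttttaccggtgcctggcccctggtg
Sdhb: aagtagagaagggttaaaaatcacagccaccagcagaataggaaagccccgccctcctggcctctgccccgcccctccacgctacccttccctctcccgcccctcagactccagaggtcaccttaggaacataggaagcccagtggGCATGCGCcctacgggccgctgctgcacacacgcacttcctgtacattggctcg
Cox6a1: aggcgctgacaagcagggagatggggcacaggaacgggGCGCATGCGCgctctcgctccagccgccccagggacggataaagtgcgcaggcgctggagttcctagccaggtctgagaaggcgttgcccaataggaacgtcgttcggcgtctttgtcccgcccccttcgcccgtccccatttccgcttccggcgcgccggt
Ndufv1: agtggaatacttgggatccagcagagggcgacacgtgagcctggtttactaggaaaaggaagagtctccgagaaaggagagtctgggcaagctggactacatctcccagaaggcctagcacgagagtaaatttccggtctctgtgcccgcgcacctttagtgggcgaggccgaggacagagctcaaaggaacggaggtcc

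The YY1 letters lay elsewhere. Of the 11 genes with a match, 9 had it on the gene's strand 11 to 39 bases after the start, and in 8 of these 9 the ATG inside the motif was the annotated start codon. The 24-base stretches below show this in 4 genes, with the YY1 letters in capitals: Atp5j2 at chr5:145191503-145191526 (minus strand, motif 24 bases after the start), Ndufs6 at chr13:73328434-73328457 (minus strand, 34 bases), Ndufs7 at chr10:80249465-80249488 (plus strand, 25 bases) and Ndufaf8 at chr11:120098936-120098959 (plus strand, 11 bases). Ndufaf8 is the gene of the 9 in which the ATG is not the annotated start codon.
Atp5j2: aggacttcAAGATGGCgtcactcg
Ndufs6: tcaccggcAAGATGGCggcggtgc
Ndufs7: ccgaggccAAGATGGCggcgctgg
Ndufaf8: cagggcccAAGATGGCggcgccct

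The levels of the 97 genes in P0 controls of the Figla set were compared per kilobase of exon length. This length counts all annotated exons of a gene, so the levels and their order depend on the annotation. The highest was Atp5a1, the catalytic-core alpha subunit of ATP synthase, at 212 ± 27.2 CPM per kilobase (SD, n = 3). Atp5b, the beta subunit, followed at 144 ± 15, then Cox6a1 at 123 ± 10.9, Cox4i1 at 106 ± 18.1 and Ndufa1 at 97.4 ± 6.88. Per kilobase Atp5a1 stood above Atp5b by more than their SDs. Before division by length the 2 overlapped, at 593, 642 and 759 CPM for Atp5a1 and 557, 596 and 681 CPM for Atp5b. The ranges of mean ± SD overlapped between Atp5b and Cox6a1, as did those of Cox4i1 with Cox6a1 and with Ndufa1.

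Where a subunit has alternative isoforms, 1 of them dominated in most cases. Cox4i1 stood at 106 against 5.41 CPM per kilobase for Cox4i2, a form known from lung. Cox6b1 stood at 56.1 against 11.4 for Cox6b2, a form known from testis. Cox8a stood at 71.3, against 4.003 for Cox8c and 0.16 for Cox8b. Cox6a1 stood at 123 against 0.13 for Cox6a2, the heart and muscle form, and Cox7b at 26.8 against 1.86 for Cox7b2. Cox7a2 (42.2) and Cox7a2l (39.9) lay within each other's SD, with Cox7a1, another muscle form, at 3.98. Among the paralogs that encode the same c subunit of ATP synthase, Atp5g3 stood at 80.6, Atp5g2 at 8.43 and Atp5g1 at 3.06 CPM per kilobase. Before division by length Atp5g2 (13.9, 12.1 and 16.4 CPM) and Atp5g1 (11.9, 16.1 and 17.2 CPM) overlapped. Ndufa4 stood at 51.0 against 2.99 for Ndufa4l2.

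At P0, 21 nuclear respiratory chain genes fell in Figla knockout ovaries against controls, spread over complexes I to IV, ATP synthase and an assembly factor, and none rose. A gene was called when its adjusted p was under 0.05 in edgeR's quasi-likelihood test with Benjamini-Hochberg adjustment over all 17321 genes tested. Of the 97 genes, 95 had counts high enough to test (Cox8b and Cox6a2 did not in any comparison), and 21 were called lower and 0 higher. That is 22.1% lower, beside 10.9% of all genes called lower and 5.12% called higher. At an unadjusted p under 0.05, 45 were lower (47.4%, against 17.5% of all genes) and 0 higher (against 13.3%). DESeq2 called 23 lower (24.2%, against 11.7% of all genes) and 0 higher. The median log2 fold change (knockout against control) was -0.29 over the 95 genes and 0.02 over all genes tested, and 87 of the 95 lay below 0, against 48.2% of all genes. In 52 of the 95 every knockout sample lay below every control, which held for 20.4% of all genes.

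The count of called genes depended on the samples. It was 6 without knockout replicate 3 (6.32%, against 6.43% of all genes called lower). It was 7 without knockout replicate 2 (7.37%, against 6.76%) and 8 without control replicate 3 (8.42%, against 7.33%). Under the other omissions of 1 library it was 19 to 21 (20% to 22.1%, against 8.43% to 10.3%). Grouped by title instead of library name, 0 of these genes and 0 of all genes were called. With only the libraries whose labels agree (2 against 2) 13 were called (13.7%, against 7.25% of all genes), 12 of them among the 21. The 6 genes called under each of the 6 omissions of 1 library were Cox8c, Ndufaf4, Sdhb, Ndufb6, Ndufv1 and Cox5a.

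**Figure D1:**
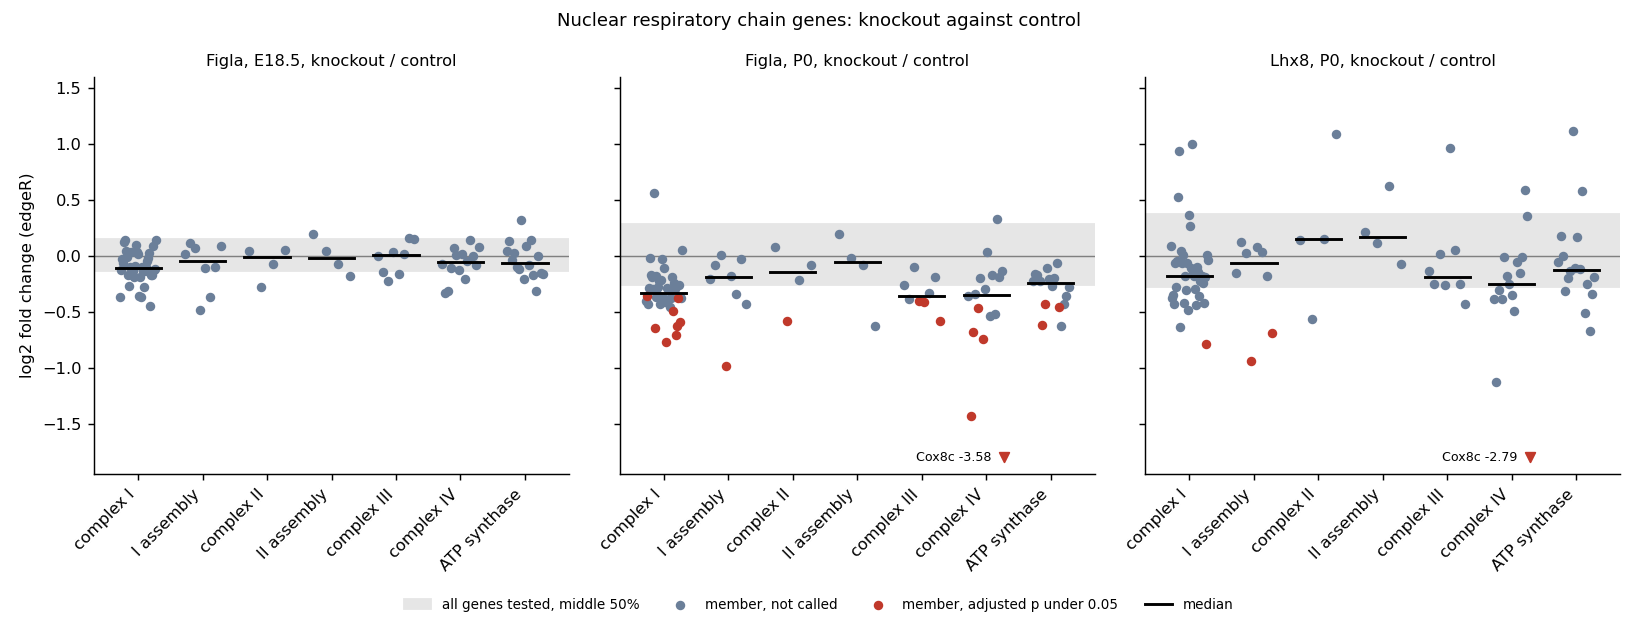
Each point is 1 gene, placed by complex on the x axis and by its log2 fold change of knockout against control on the y axis (edgeR), with the complex median as a black line and the middle 50% of all genes tested as a grey band. In Figla knockouts at P0 the complex I, III and IV medians (-0.33, -0.35 and -0.35) lie under the grey band, while at E18.5 every complex median lies inside it.

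Among complex I subunits, which take electrons from NADH, 8 of 38 fell in Figla knockouts at P0, with a median log2 fold change of -0.33. Ndufv1 (chr19:4007497-4012806, GRCm38), the subunit that binds NADH and flavin mononucleotide, stood at 147, 145 and 170 CPM in controls and at 114, 90.6 and 101 CPM in knockouts. Every knockout sample was below every control, and the log2 fold change was -0.59 (SE 0.11, edgeR Benjamini-Hochberg adjusted p 0.0062). Ndufs7, the core subunit with the last iron-sulfur cluster of the electron path, had -0.37 (adjusted p 0.0486), and was called in 2 of 14 alternative analyses.

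Accessory subunits, which surround the catalytic core, were also among the called complex I genes. Ndufb6 (chr4:40270591-40279421) stood at 26.5, 24.96 and 32.8 CPM in controls and at 17.6, 16.0 and 15.9 CPM in knockouts, or -0.77 as log2 fold change (adjusted p 0.0061). Ndufs6 stood at 26.6, 25.6 and 28.2 CPM in controls and at 18.8, 16.2 and 17.2 CPM in knockouts (-0.62, adjusted p 0.0103). Neither gene's groups overlapped. Ndufs5 (-0.71), Ndufa5 (-0.64) and Ndufa10 (-0.36) also fell, with adjusted p values of 0.0323, 0.0284 and 0.0458. The highest fold change of the 95 genes was that of Ndufa4l2, 0.56 (SE 0.30, adjusted p 0.24), which did not pass the test.

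Of the 8 complex I assembly factors, Ndufaf4 alone was called. It helps to join the parts of complex I and remains outside the finished complex. Ndufaf4 (chr4:24898083-24905001) stood at 21.3, 26.2 and 28.9 CPM in controls and at 11.2, 12.5 and 14.97 CPM in knockouts. The groups did not overlap, and its log2 fold change (-0.98, SE 0.17, adjusted p 0.0034) was far from the median of -0.19 of the assembly factors.

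Complex II passes electrons from succinate to ubiquinone and belongs to the citric acid cycle as well, and all its subunits are nuclear. Sdhb (chr4:140961203-140979193), its iron-sulfur subunit, stood at 82.5, 79.9 and 88.5 CPM in controls and at 56.2, 52.3 and 58.9 CPM in knockouts. All 3 knockout samples were below all 3 controls, and the log2 fold change was -0.58 ± 0.10 (SE, adjusted p 0.0039). Sdha, the flavoprotein that forms the catalytic head with Sdhb, stood at 285, 254 and 286 CPM in controls and at 306, 285 and 283 CPM in knockouts. These groups overlapped (0.08, adjusted p 0.60). The membrane anchors Sdhc (-0.21) and Sdhd (-0.08) did not pass the test either. The difference between the Sdhb and Sdha responses was not tested. None of the 4 complex II assembly factors was called. Their range was from -0.63 for Sdhaf4 (adjusted p 0.059), which DESeq2 called lower, to 0.20 for Sdhaf1.

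In complex III, which passes electrons from ubiquinol to cytochrome c, all 8 subunits had fold changes below 0 and 3 fell. The core proteins Uqcrc1 and Uqcrc2 fell, with -0.40 and -0.41 (adjusted p 0.0268 and 0.0191). Uqcrc1 stood at 236, 250 and 283 CPM in controls and at 204, 177 and 200 CPM in knockouts, without overlap. Uqcrq, a small subunit, stood at 36.8, 43.7 and 48.0 CPM in controls and at 35.2, 24.5 and 26.1 CPM in knockouts (-0.58, adjusted p 0.0357).

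In complex IV, cytochrome c oxidase, 5 of 16 tested subunits fell. The largest change among all 95 genes was that of Cox8c (chr12:102899306-102900534), a further form of the small subunit 8. It stood at 1.61, 2.08 and 2.03 CPM in controls and at 0.18, 0.16 and 0.10 CPM in knockouts, from raw counts of 19, 22 and 26 against 2, 2 and 1. The log2 fold change was -3.58 (SE 0.46, adjusted p 5.5e-04). Cox8a, the common form of the same subunit, stood at 36.7, 34.7 and 45.2 CPM in controls and at 39.1, 29.6 and 37.6 CPM in knockouts, overlapping groups that did not pass the test (-0.13).

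Cox5a (chr9:57521274-57532426), a subunit on the matrix side of complex IV, stood at 29.5, 27.8 and 33.3 CPM in controls and at 18.9, 16.9 and 20.8 CPM in knockouts, without overlap (-0.68, adjusted p 0.0083). Cox6a1 fell by 0.47 (adjusted p 0.0347), from 82.6, 80.9 and 95.0 CPM to 72.5, 53.7 and 60.7 CPM. Cox6b2 stood at 11.0, 12.1 and 14.7 CPM in controls and at 6.46, 9.13 and 6.89 CPM in knockouts (-0.75, adjusted p 0.0374), while Cox6b1, the common form of that subunit, did not pass the test (-0.20). Cox4i2 was called (-1.43, SE 0.43, adjusted p 0.0467) although its groups overlapped, with 2.03, 4.44 and 6.32 CPM in controls and 2.09, 1.51 and 1.10 CPM in knockouts. Cox4i1 had -0.35 and did not pass (adjusted p 0.094), but was called without the filter on low counts.

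Among the 16 ATP synthase subunits every fold change was below 0, the median was -0.24 and 3 fell. Atp5e, the epsilon subunit of the central stalk, stood at 45.5, 41.2 and 55.7 CPM in controls and at 34.4, 27.3 and 31.1 CPM in knockouts (-0.62, adjusted p 0.0165). Atp5f1, subunit b of the outer stalk, fell by 0.43 (adjusted p 0.0189), and Atp5j2, subunit f of the membrane part, by 0.45 (adjusted p 0.0457). The catalytic-core subunits Atp5a1 (-0.22) and Atp5b (-0.16) did not pass the test. Because reads were counted without regard to strand, values of called genes with an exon that overlaps another gene are uncertain, among them Atp5f1, Cox5a, Ndufb6, Ndufs6 and Uqcrc2. Reads shared with near-identical copies, such as processed pseudogenes, were not examined.

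**Figure D2:**
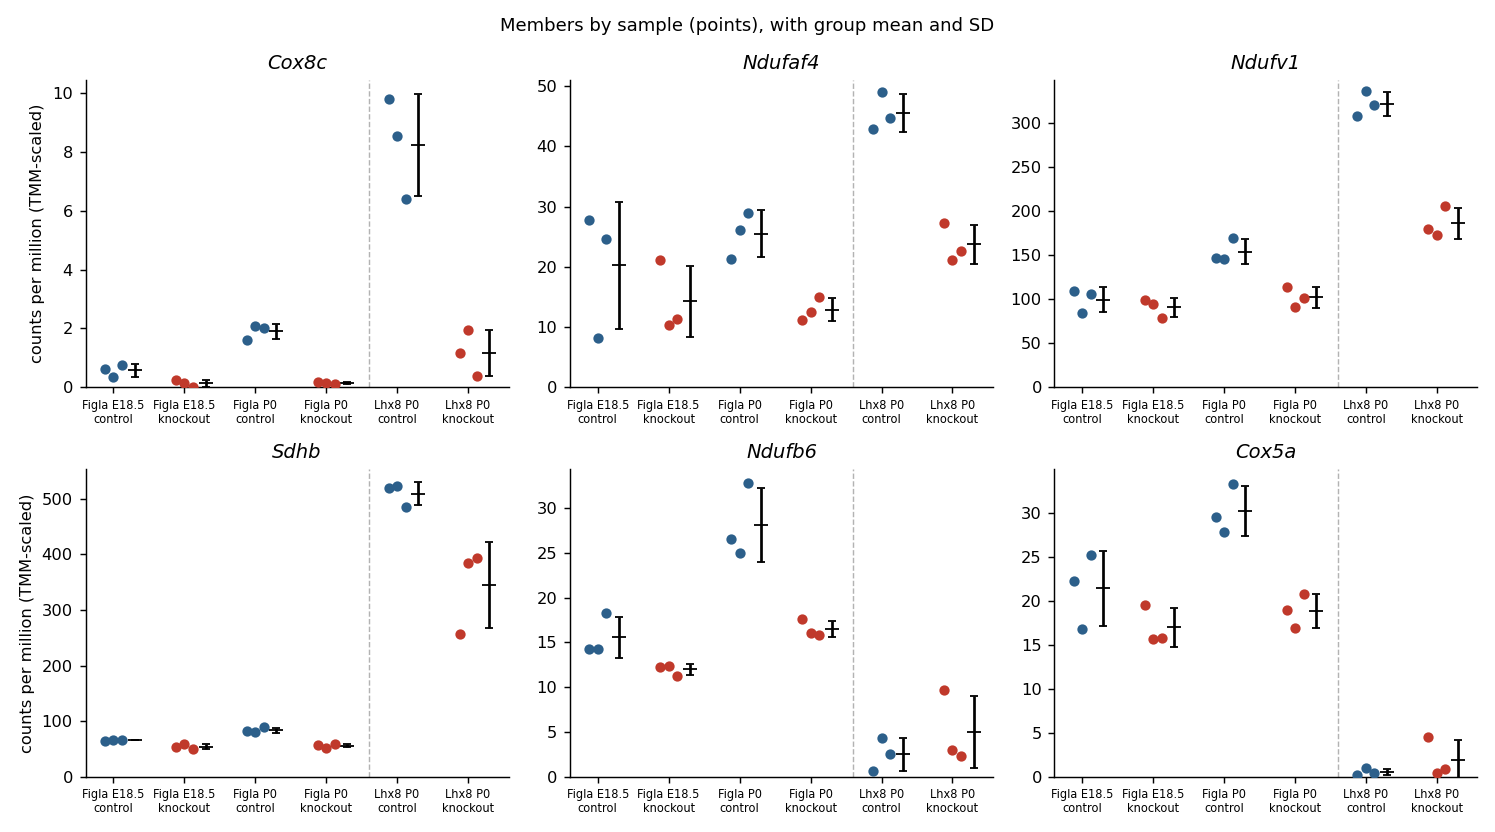
Points show CPM (TMM-scaled) of 6 genes in each sample on the y axis, by group on the x axis, with the mean and SD at the right of each group and a dashed line between the separately scaled Figla and Lhx8 sets. In the Figla set at P0 the 3 knockout samples lie under the 3 controls for all 6 genes, and in the Lhx8 set the same holds for Cox8c, Ndufaf4, Ndufv1 and Sdhb.

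Summed over the 97 genes, P0 controls reached 5618, 5604 and 6388 CPM and Figla knockouts 5241, 4460 and 4797 CPM, without overlap. The 13 subunit genes of mitochondrial DNA summed to 21412, 14384 and 21939 CPM in controls and to 18052, 12793 and 14854 CPM in knockouts, with overlapping ranges. Each of the 13 had a fold change below 0 (median -0.36), against 48.2% of all genes, and 0 passed edgeR's test or DESeq2. At an unadjusted p under 0.05 in edgeR's test 2 of the 13 were lower, beside 17.5% of all genes.

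Markers of other cell types moved in the same samples. The 13 oocyte markers summed to 1776 to 3243 CPM in P0 controls and 481 to 591 CPM in Figla knockouts, where Zp2 and Zp3, genes of the egg coat, were at 0, and all 12 tested fell. The list includes Figla, the deleted gene, so part of this fall was set by the design. The 9 stromal markers summed to 4713 to 5684 CPM in controls and 6598 to 7488 CPM in knockouts, and 6 of 9 rose. The 10 pregranulosa markers summed to 1579 to 2116 CPM and 2451 to 2798 CPM, and 2 of 10 rose. Their part in the fall of respiratory chain genes was not tested.

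**Figure D3:**
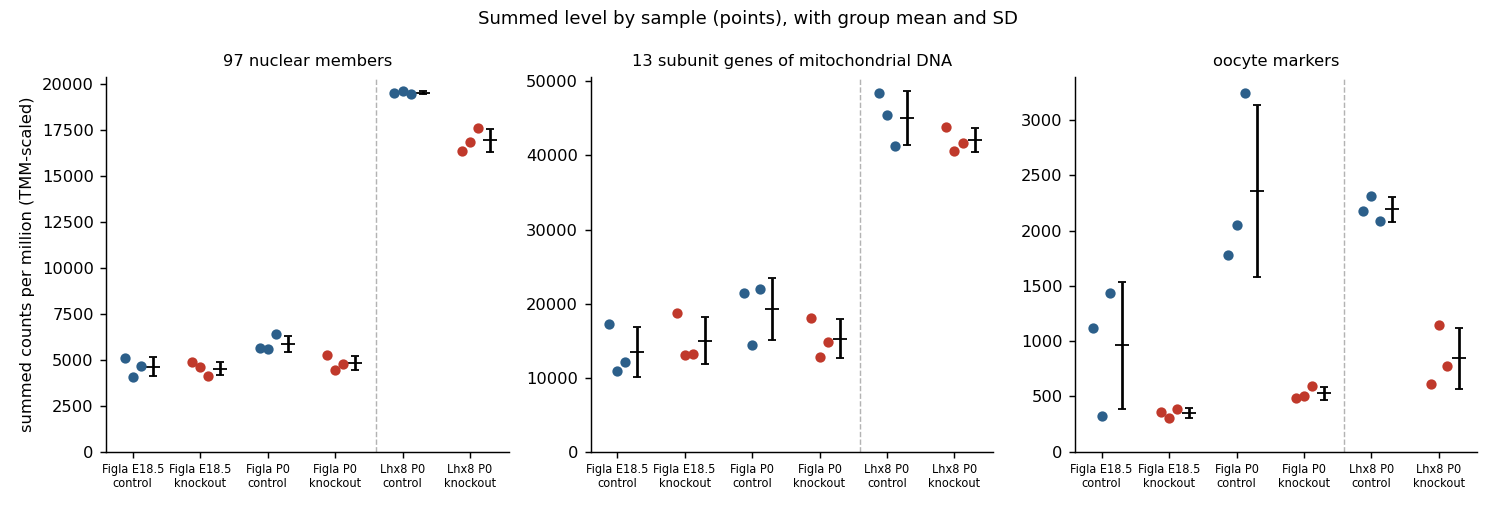
Points show summed CPM (TMM-scaled) per sample for the 97 nuclear genes, for the 13 subunit genes of mitochondrial DNA and for the oocyte markers, with the group mean and SD. The nuclear sum is lower in every P0 knockout sample than in every control of its set, the mitochondrial DNA sum overlaps between groups in both sets, and the oocyte marker sum does not overlap at P0. The oocyte markers include the deleted genes Figla and Lhx8.

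In Lhx8 knockouts at P0, 4 of the 94 genes tested fell and 0 rose: Cox8c, Ndufaf4, Ndufv1 and Ndufaf8. This is 4.26%, beside 7.29% of all 15274 genes called lower and 3.06% called higher. DESeq2 called 12 lower, which is 12.8% beside 9.19% of all genes, so the order of the shares depended on the tool. At an unadjusted p under 0.05, 22 were lower (23.4%, against 14.9% of all genes) and 3 higher (3.19%, against 12.9%). The median log2 fold change was -0.14, against 0.05 over all genes tested, and 64 of 94 lay below 0, against 45.9% of all genes. In 32 of the 94 every knockout sample was below every control, against 18.1% of all genes, and in 4 every knockout sample was above, against 15.6% of all genes. Without knockout replicate 3 the count was 9 lower (9.57%, against 6.32% of all genes) and 1 higher (1.06%, against 2.81%).

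Ndufv1 stood at 309, 336 and 320 CPM in Lhx8 controls and at 180, 173 and 206 CPM in Lhx8 knockouts, or -0.79 as log2 fold change (SE 0.13, edgeR Benjamini-Hochberg adjusted p 0.0037). Ndufaf4 stood at 42.8, 49.0 and 44.8 CPM in controls and at 27.3, 21.2 and 22.6 CPM in knockouts (-0.94, SE 0.15, adjusted p 0.0042). Cox8c stood at 9.80, 8.54 and 6.39 CPM in controls and at 1.17, 1.94 and 0.37 CPM in knockouts (-2.79, SE 0.46, adjusted p 0.0045). None of these groups overlapped, and the 3 genes were called under all 11 alternative analyses of the Lhx8 set.

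Ndufaf8, another complex I assembly factor, stood at 128, 82.0 and 85.2 CPM in controls and at 53.6, 66.6 and 63.0 CPM in knockouts (-0.69, adjusted p 0.0429). The groups did not overlap, but the call was lost whenever any 1 library was left out. Sdhb stood at 519, 522 and 485 CPM in controls and at 256, 385 and 394 CPM in knockouts, without overlap and short of the test's threshold (-0.56, adjusted p 0.061).

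By complex, the Lhx8 medians were -0.18 for complex I, 0.15 for complex II, -0.19 for complex III, -0.25 for complex IV and -0.12 for ATP synthase. The highest fold changes were those of Atp5g1 (1.12), Sdhd (1.09), Ndufb6 (1.00) and Uqcrc2 (0.97), none of which passed the test. Cox4i2 had -1.13, the lowest after Cox8c, and did not pass either. Sdhd, Ndufb6, Uqcrc2 and Cox5a were under 10 CPM in each Lhx8 library, and Cox5a was too low to test. In Figla P0 controls the same genes averaged 72.9, 28.1, 133 and 30.2 CPM. Since the kit differed between the sets, a difference of kit and a difference of ovaries cannot be told apart here.

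Lhx8 knockout replicate 1 was the highest Lhx8 library for Uqcrc2, Ndufb6, Sdhd and Cox5a. Uqcrc2 stood at 4.86 CPM there and at 1.12 to 1.86 CPM in the other 5 Lhx8 libraries, and without that library the fold changes of Uqcrc2, Ndufb6 and Sdhd were 0.23, 0.09 and 0.33. Of the 94 genes, knockout replicate 1 was the highest of the 6 libraries in 24 and the lowest in 33. Over all genes it was the highest in 26.4% and the lowest in 24.7%. Control replicate 1 was the highest in 27 of the 94 (against 15.4% of all genes) and the lowest in 18 (against 18.7%). Control replicate 2 was the highest in 20 (against 17%) and the lowest in 4 (against 17.2%). Without knockout replicate 1, Ndufv1 (-0.76), Ndufaf4 (-1.06) and Cox8c (-2.77) remained called.

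The 97 genes summed to 19552, 19622 and 19495 CPM in Lhx8 controls and to 16383, 16881 and 17636 CPM in Lhx8 knockouts, without overlap. The 13 oocyte markers summed to 2090 to 2309 CPM in controls and 610 to 1147 CPM in knockouts, with 9 of 12 tested lower. The list includes Lhx8, the deleted gene, so part of the lower sum was set by the design. The 9 stromal markers summed to 3703 to 4200 CPM and 5503 to 6338 CPM, with 5 of 9 higher. Erythroid markers summed to 4138 to 6409 CPM in controls and 4917 to 11846 CPM in knockouts. Their part in these results was not tested.

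The 2 knockouts, which share no libraries, had 3 called genes in common, Cox8c, Ndufaf4 and Ndufv1. These are 14.3% of the 21 genes called in Figla knockouts and 75% of the 4 called in Lhx8 knockouts. Of the 20 genes called in Figla knockouts that could be tested in the Lhx8 set, 18 also lay below 0 there. The exceptions were Ndufb6 and Uqcrc2, both under 10 CPM in all Lhx8 libraries. Over all genes tested in the Lhx8 set 45.9% lay below 0. The matching share, over all genes called lower in Figla knockouts, was not computed. Of the 94 genes tested in both sets, 61 lay below 0 in both. The matching shares over all genes, for shared calls and for values below 0 in both sets, were not computed. These overlaps therefore have no background to be judged by.

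**Figure D4:**
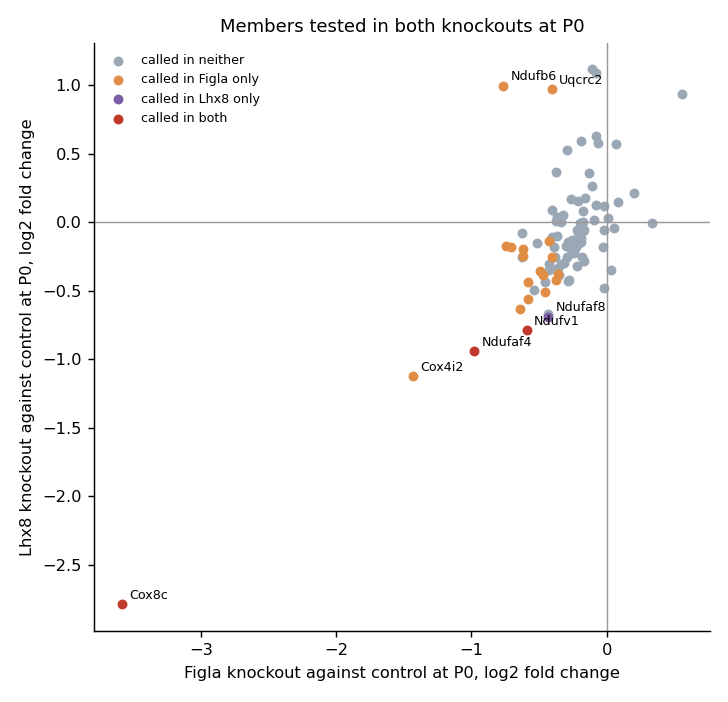
Each point is 1 of the 94 genes tested in both sets, with its log2 fold change in Figla knockouts at P0 on the x axis and in Lhx8 knockouts at P0 on the y axis, coloured by the set in which it was called. Cox8c (-3.58 and -2.79), Ndufaf4 (-0.98 and -0.94) and Ndufv1 (-0.59 and -0.79) were called in both.

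At E18.5, before birth, 0 of 93 tested genes were called between Figla knockouts and controls, by edgeR and by DESeq2. An unadjusted p under 0.05 was reached by 0 of them, against 2.02% of all genes lower and 1.74% higher. Over all 16131 genes tested, 0% were called higher and 0.0062% lower, so the E18.5 samples gave almost no calls for any gene. Without control replicate 3, whose oocyte markers lay in the knockout range, 0.531% of all genes and 0 of the 93 were called lower. The median log2 fold change was -0.07, against 0.01 over all genes, and 58 of 93 lay below 0, against 47.1% of all genes. In 7 of the 93 every knockout sample was below every control, against 4.28% of all genes. The 7 included Sdhb, with 65.0, 66.1 and 65.8 CPM in controls and 53.0, 58.5 and 49.5 CPM in knockouts (-0.28, SE 0.13).

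The lowest E18.5 fold change was that of Ndufaf4 (-0.48, SE 0.45). It stood at 27.8, 8.22 and 24.6 CPM in controls and at 21.1, 10.4 and 11.3 CPM in knockouts, with control replicate 3 lowest of all 6 samples. Without that control the value was -0.83 (SE 0.33), which did not pass the test. Cox8c was too low to test, at 0.63, 0.34 and 0.75 CPM in controls and 0.24, 0.16 and 0.00 CPM in knockouts. The median over the E18.5 genes depended on the samples. It was 0.02 without the summed control sample, 0.00 without knockout replicate 4, -0.13 without control replicate 3, -0.14 without the summed knockout sample and -0.17 without both samples numbered 3. Grouped by title it was -0.23, and with only the libraries whose labels agree it was -0.30, with 82 of 93 below 0. Erythroid markers summed to 779 to 977 CPM in E18.5 controls and 1058 to 2987 CPM in knockouts; their part in these values was not tested.

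From E18.5 to P0 most respiratory chain genes had higher values in Figla control ovaries, without passing the test. The median log2 fold change (P0 against E18.5) was 0.35 over 95 genes and -0.02 over all 18379 genes tested. Of the 95, 88 lay above 0, against 47.9% of all genes. In 54 of the 95 every P0 control was above every E18.5 control, against 14.8% of all genes. edgeR called 0 of the 95, and 0% of all genes in either direction. At an unadjusted p under 0.05, 49 were higher (51.6%, against 12.2% of all genes) and 1 was lower (1.05%, against 11%). DESeq2 called 24 higher (25.3%, against 5.63% of all genes). The smallest adjusted p was that of Ndufb6 (0.85, SE 0.16, adjusted p 0.061), at 14.3, 14.2 and 18.2 CPM in E18.5 controls and 26.5, 24.96 and 32.8 CPM in P0 controls.

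The highest fold changes with age in controls were those of Cox8c (1.66), Cox4i2 (1.12), Uqcrq (0.94) and Cox7b (0.88). The lowest were those of Ndufa4l2 (-0.70) and Ndufab1 (-0.49), the mitochondrial acyl carrier protein, which is both a complex I subunit and part of lipoic acid synthesis. By complex, the medians in controls were 0.40 for complex I, 0.30 for complex II, 0.48 for complex III, 0.38 for complex IV and 0.36 for ATP synthase. Leaving out 1 library gave a median over the 95 genes of 0.27 (without E18.5 control replicate 3) to 0.45 (without the summed E18.5 control). Grouped by title it was 0.19, and with only the libraries whose labels agree 0.20, with 28 of 95 below 0 under both. Summed oocyte markers ranged from 326 to 1439 CPM in E18.5 controls and from 1776 to 3243 CPM in P0 controls, and their part in these values was not tested.

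In Figla knockouts the median change with age was 0.14, against -0.01 over all genes, and 75 of 95 lay above 0. edgeR and DESeq2 each called 0 of them, with 9 higher and 3 lower at an unadjusted p under 0.05 (9.47% and 3.16%, against 5.11% and 7.51% of all genes). The median was 0.06 without P0 knockout replicate 1, 0.08 without E18.5 knockout replicate 4 and 0.24 without the summed E18.5 knockout, and 0.33 grouped by title. Erythroid markers summed to 1058 to 2987 CPM in E18.5 knockouts and 217 to 908 CPM in P0 knockouts, and their part in these values was not tested. Over all genes 0.00544% were called lower and 0% higher. Cox7b2 (1.13) and Sdhaf1 (0.74) had the highest values and Cox6b2 (-0.73) the lowest.

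The difference of the knockout effect between the 2 ages was tested as an interaction of age and genotype. Its median over the 95 genes was -0.23, against 0.01 over all genes, and 84 lay below 0. edgeR and DESeq2 each called 0 of these genes, and edgeR called 0% of all genes. At an unadjusted p under 0.05, 6 were lower (6.32%, against 3.6% of all genes) and 0 higher (against 1.72%). The median ranged from -0.37 to -0.13 when 1 library was left out. It was -0.02 with only the libraries whose labels agree, with 48 of 95 below 0, and 0.14 grouped by title, with 29 below 0. The knockout effect on respiratory chain genes was thus not shown to differ between E18.5 and P0 for any single gene. The lowest values were those of Cox8c (-1.81, SE 0.88), Cox4i2 (-1.08) and Uqcrq (-0.71).

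**Figure D5:**
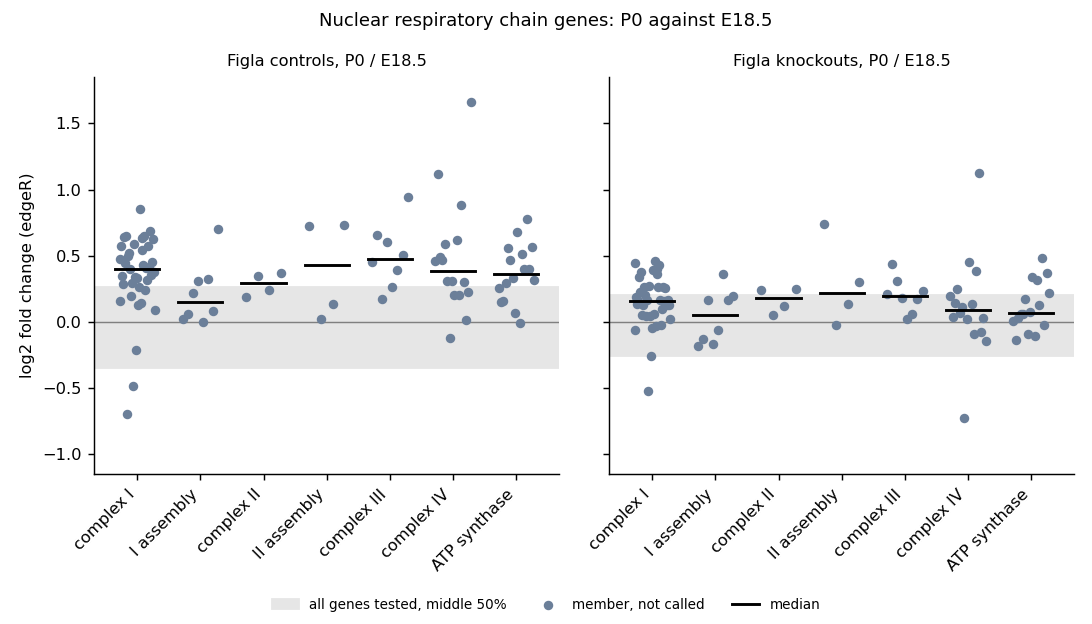
Each point is 1 gene, placed by complex on the x axis and by its log2 fold change of P0 against E18.5 on the y axis (edgeR), in Figla controls at the left and Figla knockouts at the right, with complex medians as black lines and the middle 50% of all genes as a grey band. In controls the medians of complexes I to IV and of ATP synthase, from 0.30 to 0.48, all lie above the band.

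Genes with related functions that the symbol rule leaves out were read from the same fits. Of 34 tested assembly factors outside the rule, 6 (17.6%, against 10.9% of all genes) fell and 0 rose in Figla knockouts at P0, with a median of -0.17. Lyrm7, the chaperone of the Rieske iron-sulfur protein of complex III, stood at 13.5, 10.4 and 12.8 CPM in controls and at 1.46, 2.06 and 0.798 CPM in knockouts, or -3.05 as log2 fold change (SE 0.31, edgeR Benjamini-Hochberg adjusted p 1.2e-04). Uqcc2, an assembly factor for cytochrome b of complex III, stood at 37.1, 40.7 and 48.0 CPM in controls and at 19.6, 19.2 and 17.7 CPM in knockouts (-1.15, adjusted p 3.1e-04). Neither gene's groups overlapped. The others that fell were Ecsit (-0.61), a complex I factor, Cox10 (-0.53), which makes heme O for complex IV, Cox14 (-0.50) and the ATP synthase factor Tmem70 (-0.45).

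In Lhx8 knockouts 4 of 32 tested assembly factors outside the rule fell (12.5%, against 7.29% of all genes). All 4 were also among those 6: Lyrm7 (-2.60), Uqcc2 (-0.86), Ecsit (-0.73) and Cox10 (-0.56). The matching overlap over all genes was not computed. Lyrm7 stood at 21.1, 23.5 and 19.6 CPM in Lhx8 controls and at 2.92, 5.20 and 2.35 CPM in knockouts. Of the 13 subunit genes of mitochondrial DNA, mt-Co1 rose (0.57) and mt-Nd2 fell (-0.53) in Lhx8 knockouts. Each is 7.69% of the 13, against 3.06% of all genes higher and 7.29% lower. The 13 genes summed to 41257 to 48416 CPM in controls and 40665 to 43807 CPM in knockouts.

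Among 10 tested genes for cytochrome c and for subunits and transfer proteins named otherwise, Cyc1 (-0.51), which is cytochrome c1 of complex III, and Higd1a (-0.53) fell in Figla knockouts at P0 (20%, against 10.9% of all genes). Of 16 regulators of respiratory genes, Tfam and Nrf1 fell and Ppargc1a rose, shares of 12.5% and 6.25% that are near those of all genes (10.9% and 5.12%). Tfam, which packages and transcribes mitochondrial DNA, stood at 72.2, 72.5 and 81.6 CPM in controls and at 49.3, 45.7 and 51.8 CPM in knockouts (-0.62). Nrf1 stood at 63.1, 70.4 and 83.5 CPM in controls and at 49.3, 57.0 and 55.7 CPM in knockouts (-0.42). Ppargc1a, a coactivator, stood at 6.35, 6.15 and 3.9 CPM in controls and at 9.10, 11.9 and 9.38 CPM in knockouts (0.90). Nrf1 was close to the threshold (edgeR Benjamini-Hochberg adjusted p 0.049).

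All 17 tested genes of the citric acid cycle and pyruvate dehydrogenase lay below 0 in Figla knockouts at P0. Of these 4 fell (23.5%, against 10.9% of all genes): Idh3a (-0.65), Ogdh (-0.46), Suclg2 (-0.41) and Mdh2 (-0.37). Of 17 carriers, import proteins and chaperones, 5 fell (29.4%): the ADP/ATP carrier Slc25a31 (-0.85), the chaperonins Hspd1 (-0.62) and Hspe1 (-0.51), Phb (-0.56) and Hspa9 (-0.41). In Lhx8 knockouts 0 of the 17 citric acid cycle genes, 0 of 13 regulators and 0 of 10 cytochrome c and related genes were called by edgeR or DESeq2. At an unadjusted p under 0.05 in edgeR's test they had 3 lower, 3 lower and 1 higher, beside 14.9% of all genes lower and 12.9% higher. Of the 17 carriers and chaperones Hspd1 fell (-0.69) by edgeR (5.88%, against 7.29% of all genes), while DESeq2 called 2 lower and 1 higher.

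Genes with an NRF1 match in the promoter window had a median log2 fold change of -0.41 in Figla knockouts at P0 (12 genes, 4 called lower: Ndufaf4, Sdhb, Uqcrc1 and Cox6a1). The 67 tested genes without one had -0.26, with 12 called lower, and 10.9% of all genes were called lower. For YY1 the medians were -0.39 over 11 genes (4 called lower: Atp5f1, Atp5j2, Ndufs6 and Ndufs7) and -0.26 over the 68 without a match (12 called lower). For GABPA they were -0.19 over 5 genes, 0 of them called, and -0.29 over the 74 without a match, 16 of them called lower. The differences between these medians were not tested. In Lhx8 knockouts the medians with and without an NRF1 match were -0.25 and -0.11, and at E18.5 in Figla knockouts -0.12 and -0.04.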

How the data were processed

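Each library's deposited table lists raw counts per gene. The submitters' processing notes name cutadapt, HISAT2 and the build GRCm38.p5 (tool versions: not given in the sources used). Per the file headers, featureCounts 1.6.0 assigned reads to GENCODE M12 without using strand. Symbols were matched for 49326 of 49585 gene IDs. The genes and gene lists were chosen with earlier results of these data known.

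Genes passed edgeR's filterByExpr (minimum count 10, total 15), were scaled by TMM and tested with edgeR 4.0.16 (quasi-likelihood, Benjamini-Hochberg adjustment over all genes tested, threshold 0.05) in R 4.3.3. Each knockout was fitted against its own controls, and the age contrasts in 1 model of the 4 Figla groups. CPM use TMM-scaled totals within each set. DESeq2 1.42.0 and other settings were alternatives. The fit was tested on simulated data. Genes are named where called in a knockout, among the 4 highest or lowest fold changes, as isoforms, as complex II subunits or among the 5 highest levels. Lists of brown fat, striated muscle and mesonephric duct markers held 4, 4 and 6 tested genes in the Figla set at P0, of which 0, 1 and 1 were lower and 0 higher; those of pericytes (3 of 7), endothelium (4 of 8) and macrophages (1 of 7) were partly higher, and 0 of 7 erythroid markers were called. Values of 1 gene that was counted in the totals are not reported here.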

Additional observations from a re-analysis of the deposited data

How the results depend on the processing

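The count of respiratory chain genes called lower in Figla knockouts at P0 was 21. It was 8 in 1 model of all Figla samples (8.42%, against 5.97% of all genes) and 0 with groups by title (against 0%). With only libraries whose labels agree it was 13 (13.7%, against 7.25%). When 1 library was left out it was 6 to 21 (6.32% to 22.1%, against 6.43% to 10.3% of all genes). With the replicate number as a block it was 38 (40%, against 15.4% of all genes), which included the 21 and added Sdhaf4 and Cox4i1 among others. These numbers follow the order of deposit and mark no known pairing, although same-numbered samples correlated at 0.41, 0.31 and 0.39 at P0 and at 0.59, 0.54 and 0.29 at E18.5, and each sample correlated best with its own number. With groups by title, 7 called genes changed sign at P0: Cox4i2 (0.069), Cox6b2 (0.055), Higd1a (0.015), Ndufa10 (0.0013), Nrf1 (0.099), Ogdh (0.043) and Phb (0.094). For the Lhx8 set, grouping by title only flips every sign. There the count of lower genes was 4 (4.26%, against 7.29% of all genes). Without a filter on low counts 11 were lower (11.3%, against 6.38%) and 3 higher (3.09%, against 3.62%). DESeq2 called 12 lower (12.8%, against 9.19%). When 1 library was left out, 3 to 9 were lower (3.19% to 9.57%, against 3.35% to 6.53%). With such omissions 0 to 1 were higher (0% to 1.06%, against 0.625% to 3%). The block gave 3 lower in the Lhx8 set (3.19%, against 4.67% of all genes). The numbers in the library names did not pair samples there (correlations -0.20, 0.05 and 0.04). At E18.5 the count was 0 with the block too, with 3 lower by title (3.23%, against 4.1% of all genes) and 1 with agreeing labels (1.08%, against 3.31%). For age in controls the count of higher genes was 0. It was 12 without the filter (12.4%, against 2.24% of all genes) and 24 by DESeq2 (25.3%, against 5.63%). With each library as its own sample it was 20 (21.1%, against 4.74%). By title it was 1 (1.05%, against 2.98%) and with agreeing labels 3 (3.16%, against 3.26%). When 1 library was left out it was 0 to 3 (0% to 3.16%, against 0% to 2.29%). In knockouts with age, and for the interaction, the count was 0 under each alternative run. Scaling by total counts moved the median of all genes to 0.11 in the Lhx8 set and to -0.11 with age in controls, with member medians of -0.08 and 0.27. The causes of these shifts were not tested, beyond the smaller number of samples where libraries were left out. Depth limits Cox8c, Cox4i2 and Cox7b2, which rest on few counts.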
